A study of Mus musculus with 8 samples.

Results

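The genes described here encode 10 proteins of the skeletal muscle triad and of excitation-contraction coupling: Cacna1s, Cacna2d1, Cacnb1, Cacng1, Stac3, Ryr1, Trdn, Casq1, Jph1 and Jph2. They were chosen by name, and all 10 were measured, among 19938 genes in all. For each gene the transcript cluster (the set of probes that the array summarises into 1 value) with the highest mean over the 8 arrays was used, out of 31 clusters annotated to 1 of these symbols alone. Gene expression was measured on Affymetrix whole-transcript arrays in the gastrocnemius, a mixed calf muscle with mostly fast fibres, of 8 male mice. The mice were 6 months old, ate chow and were fasted for 5 h. Knockout mice (Gcn5skm-/-, HSAcre Tg/0 and Gcn5 L2/L2, n = 4) lacked Gcn5, the lysine acetyltransferase encoded by Kat2a, in muscle fibres, since the Cre recombinase was driven by the human skeletal actin promoter. Wild-type mice (Gcn5skm+/+, HSAcre 0/0 and Gcn5 L2/L2, n = 4) carried the same floxed Gcn5 alleles without Cre, so that effects of Cre itself and of the deletion cannot be told apart. Cells of the muscle other than fibres keep Gcn5.

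A triad is the place where a transverse tubule, an inward fold of the fibre's surface membrane, lies between a pair of terminal cisternae of the sarcoplasmic reticulum. Depolarisation of the tubule moves the voltage sensor, the L-type calcium channel Cav1.1, which in skeletal muscle opens the ryanodine receptor of the reticulum through a mechanical link rather than through calcium entry. The calcium that leaves the reticulum binds troponin C and starts contraction, and pumps then return it to the reticulum, where calsequestrin holds it.

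Values are log2 units after RMA (the array's background correction, quantile normalization and probe summary), and levels of different clusters cannot be set against each other. Array medians over all clusters lay between 4.61 and 4.72. Kat2a itself measured 6.50, 6.46, 6.45 and 6.43 in wild types 1 to 4 and 5.81, 5.84, 5.79 and 5.73 in knockouts 1 to 4 (difference -0.66, SE 0.08, limma adjusted p = 0.0319), and was 1 of 3 genes past an adjusted p of 0.05. Whether its probes lie in the deleted exons is not known here, so its remaining signal does not measure how complete the deletion was. Markers of skeletal fibres were high on all arrays, with Acta1 between 12.60 and 12.72 and Ckm between 12.60 and 12.70. Some varied more, such as Myh2 (9.03 to 11.52) and Mb (10.60 to 11.82), both lowest in knockout 4. The mean of all 11 ranged from 11.91 to 12.05 over wild types and from 11.67 to 12.07 over knockouts. Of 8 measured heart markers, Ryr2 and Nppa lay below the array median on all arrays (Ryr2 between 4.16 and 4.39). The other heart markers did not. Tnnt2 (5.76 to 6.47) and Gja1 (6.24 to 6.76) lay above it on all arrays. The mean of 13 slow-fibre markers ranged from 6.97 to 8.50 over wild types and from 6.21 to 8.98 over knockouts. The mean of 12 fast-fibre markers ranged only from 11.89 to 11.99 and from 11.91 to 11.94. The mean of 15 macrophage markers was 5.54 to 5.67 in wild types and 5.72 to 6.41 in knockouts, the highest value being that of knockout 4. Whole muscle was profiled, so fewer fibres and less RNA per fibre cannot be told apart in any value given here.

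Upstream sequences are shown for the voltage sensor's pore (Cacna1s), the release channel (Ryr1) and the calcium buffer (Casq1), whose values over the 8 arrays are described next. They come from RefSeq (GRCm38.p6), run 5′ to 3′ along the gene and hold the bases from 250 before the annotated start that lie outside the annotated gene. Capitals mark E-boxes (CANNTG, the motif bound by MyoD and its relatives) and GC boxes (GGGCGG on either strand).
Cacna1s, chr1:136052561-136052805, plus strand: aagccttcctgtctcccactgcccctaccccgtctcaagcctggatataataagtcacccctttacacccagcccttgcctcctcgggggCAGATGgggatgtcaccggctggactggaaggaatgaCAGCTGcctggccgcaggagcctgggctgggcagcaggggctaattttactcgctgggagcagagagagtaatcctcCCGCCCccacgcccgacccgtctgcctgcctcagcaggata
Ryr1, chr7:29125180-29125401, minus strand: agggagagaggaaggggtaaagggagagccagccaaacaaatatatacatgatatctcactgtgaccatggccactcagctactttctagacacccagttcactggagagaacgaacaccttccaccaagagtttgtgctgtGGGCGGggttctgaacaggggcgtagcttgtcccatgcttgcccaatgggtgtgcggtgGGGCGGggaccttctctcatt
Casq1, chr1:172219896-172220145, minus strand: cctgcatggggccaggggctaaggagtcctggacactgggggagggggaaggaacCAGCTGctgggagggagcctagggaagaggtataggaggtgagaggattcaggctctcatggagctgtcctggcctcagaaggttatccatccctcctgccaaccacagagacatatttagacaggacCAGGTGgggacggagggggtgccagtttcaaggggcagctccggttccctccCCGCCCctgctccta
Cacna1s and Casq1 each held 2 E-boxes and 1 GC box, and Ryr1 held 2 GC boxes and no E-box. RefSeq windows of 300 bases (250 before to 50 after a start) matched 6 of the 10 genes, with 8 windows in all. An E-box was present in at least 1 window of Cacna1s, Cacnb1, Jph2 and Casq1, against 72.3% of 32851 mouse promoter windows. A GC box was present in at least 1 window of Ryr1, Cacna1s, Cacna2d1, Cacnb1, Jph2 and Casq1, against 35.7%. Both shares count single windows, whereas Cacnb1 and Jph2 had more than 1 window each, so genes and shares are unlike units. The TATA box (TATAAA, in 13.6% of all windows), the MEF2 site (3.19%) and the CArG box (1.63%), all searched on both strands, were in none of the 8 windows.

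The comparison asks whether muscle whose fibres lack Gcn5 carries a different amount of transcript for the calcium release machinery. None of the 10 genes met a threshold used here for a difference between genotypes. In limma, 0 of 10 had an adjusted p under 0.05 (0.015% of all genes did), 0 of 10 one under 0.1 (0.0802% of all genes) and 0 of 10 an unadjusted p under 0.05 (5.73% of all genes), and the groups overlapped for all 10 (they did not for 3.62% of all genes). Knockout minus wild type ran from -0.23 (Cacna2d1) to 0.12 (Trdn), with 8 genes lower and 2 higher, while 54.7% of all genes were lower. The median difference was -0.035, and that of all genes was -0.014. Kat2a stood apart from these genes in the same fit, since its 95% interval, -0.83 to -0.50, lay below the interval of every triad gene.

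**Figure D1:**
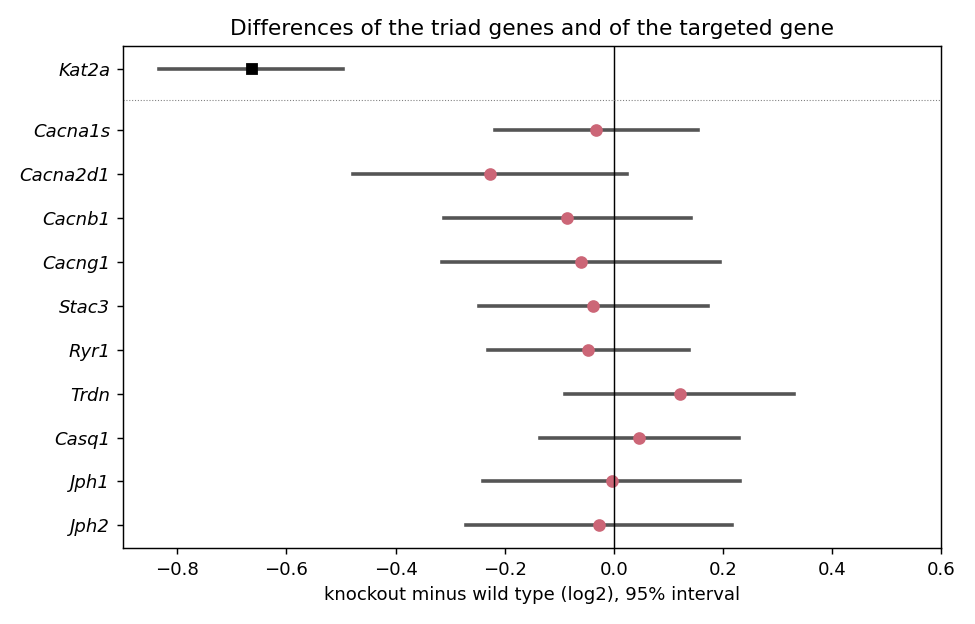
Knockout minus wild type on the log2 scale (x axis) for the 10 triad genes (circles) and Kat2a (square), with 95% intervals from limma (n = 4 arrays per group). The intervals of all 10 triad genes include 0, and that of Kat2a, -0.83 to -0.50, does not.

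Cacna1s encodes the pore-forming subunit of Cav1.1, which is both the voltage sensor and the calcium channel. It measured 10.97, 10.99, 10.80 and 10.85 in wild types 1 to 4 and 10.96, 10.87, 10.78 and 10.87 in knockouts 1 to 4. The ranges nearly coincide, with wild type 3 and knockout 3 lowest. The difference was -0.032 (SE 0.085, 95% interval -0.22 to 0.15, limma adjusted p = 0.972). An array signal in knockouts under 0.860 or over 1.11 times that of wild types thus lies outside the interval.

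Cacna2d1 encodes the alpha-2/delta-1 subunit, an extracellular protein that assists channel trafficking and gating. It measured 10.13, 10.57, 10.01 and 10.26 in wild types and 10.07, 9.94, 9.98 and 10.06 in knockouts. Wild type 2 was the highest array, and wild type 3 lay within the knockout range. Of the 10 genes it had the widest difference, -0.23 (SE 0.12, 95% interval -0.48 to 0.024, ratio 0.854), with an unadjusted p of 0.0727 and a limma adjusted p of 0.869. Without wild type 2 the difference was -0.12, and without wild type 3, the one wild type among the knockouts, it was -0.31 (limma adjusted p = 0.608). Array weights, which count less consistent arrays less, were lowest for wild type 2 (0.323, others 0.665 to 1.51). With them the difference was -0.145. A further cluster of the gene gave -0.17 (SE 0.12), and there too wild type 2 was highest, at 9.92 against 9.31 to 9.51 on the other arrays.

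The beta-1 subunit, which binds the pore on its cytoplasmic side and brings it to the triad, is encoded by Cacnb1. Its values were 7.96, 8.10, 7.87 and 8.01 in wild types and 7.96, 7.84, 7.69 and 8.12 in knockouts. Knockouts held both the lowest value and the highest. The difference was -0.086 (SE 0.10, 95% interval -0.31 to 0.14, limma adjusted p = 0.934).

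Cacng1 encodes the gamma-1 subunit, a skeletal muscle membrane protein that dampens the channel's calcium current. In wild types it measured 10.23, 9.95, 9.93 and 10.03 and in knockouts 10.15, 9.80, 9.77 and 10.17. Knockouts 1 and 4 lay above 3 of the 4 wild types, and knockouts 2 and 3 below all of them. The SD was 0.14 in wild types and 0.22 in knockouts, and the difference of -0.060 (SE 0.12, 95% interval -0.32 to 0.20, limma adjusted p = 0.957) was smaller than either.

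Stac3 encodes an adaptor with SH3 domains that is needed for Cav1.1 to reach the triad and to drive the release channel. It measured 8.70, 8.86, 8.75 and 8.80 in wild types and 8.86, 8.64, 8.57 and 8.90 in knockouts. As for Cacng1, knockouts 1 and 4 were high and knockouts 2 and 3 low, the latter pair below every wild type. The difference was -0.038 (SE 0.097, 95% interval -0.25 to 0.17, limma adjusted p = 0.971).

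Ryr1 encodes the ryanodine receptor, the calcium release channel of the terminal cisternae and the partner that Cav1.1 opens. It measured 11.69, 11.71, 11.55 and 11.67 in wild types and 11.69, 11.59, 11.50 and 11.67 in knockouts. Knockout 1 matched wild type 1, and knockout 3 was the lowest array. With a residual SD of 0.080, it was among the steadier of the 10 genes. The difference was -0.047 (SE 0.085, 95% interval -0.23 to 0.14, limma adjusted p = 0.952). As a ratio of array signal, knockout to wild type, the interval ran from 0.852 to 1.10.

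Casq1 encodes the skeletal muscle form of calsequestrin, the protein that stores calcium inside the cisternae. Its values were 11.84, 11.80, 11.65 and 11.70 in wild types and 11.84, 11.79, 11.71 and 11.83 in knockouts. All 4 knockouts lay inside the wild-type range to the second decimal. Its residual SD of 0.075 was the smallest of the 10, and the difference was 0.047 (SE 0.084, 95% interval -0.13 to 0.23, limma adjusted p = 0.951).

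Junctophilins span the gap between tubule and reticulum and hold the membranes together. Jph1, the form typical of skeletal muscle, measured 10.66, 10.89, 10.51 and 10.59 in wild types and 10.75, 10.53, 10.53 and 10.82 in knockouts. Its group means, 10.66 and 10.66, gave the difference nearest 0 of the 10 genes, -0.004 (SE 0.11, 95% interval -0.24 to 0.23, limma adjusted p = 0.997), and a further cluster gave 0.075 (SE 0.099). Jph2, which the heart also uses, measured 8.18, 8.53, 8.15 and 8.32 in wild types and 8.39, 8.15, 8.10 and 8.42 in knockouts. Wild type 2 was highest for both genes, followed by knockouts 4 and 1. The Jph2 difference was -0.028 (SE 0.11, 95% interval -0.27 to 0.22, limma adjusted p = 0.983), and -0.079 (SE 0.096) in its other cluster. The sign of either junctophilin's difference depended on the normalization, since it turned under cyclic loess normalization (0.014 for Jph1 and 0.001 for Jph2).

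**Figure D2:**
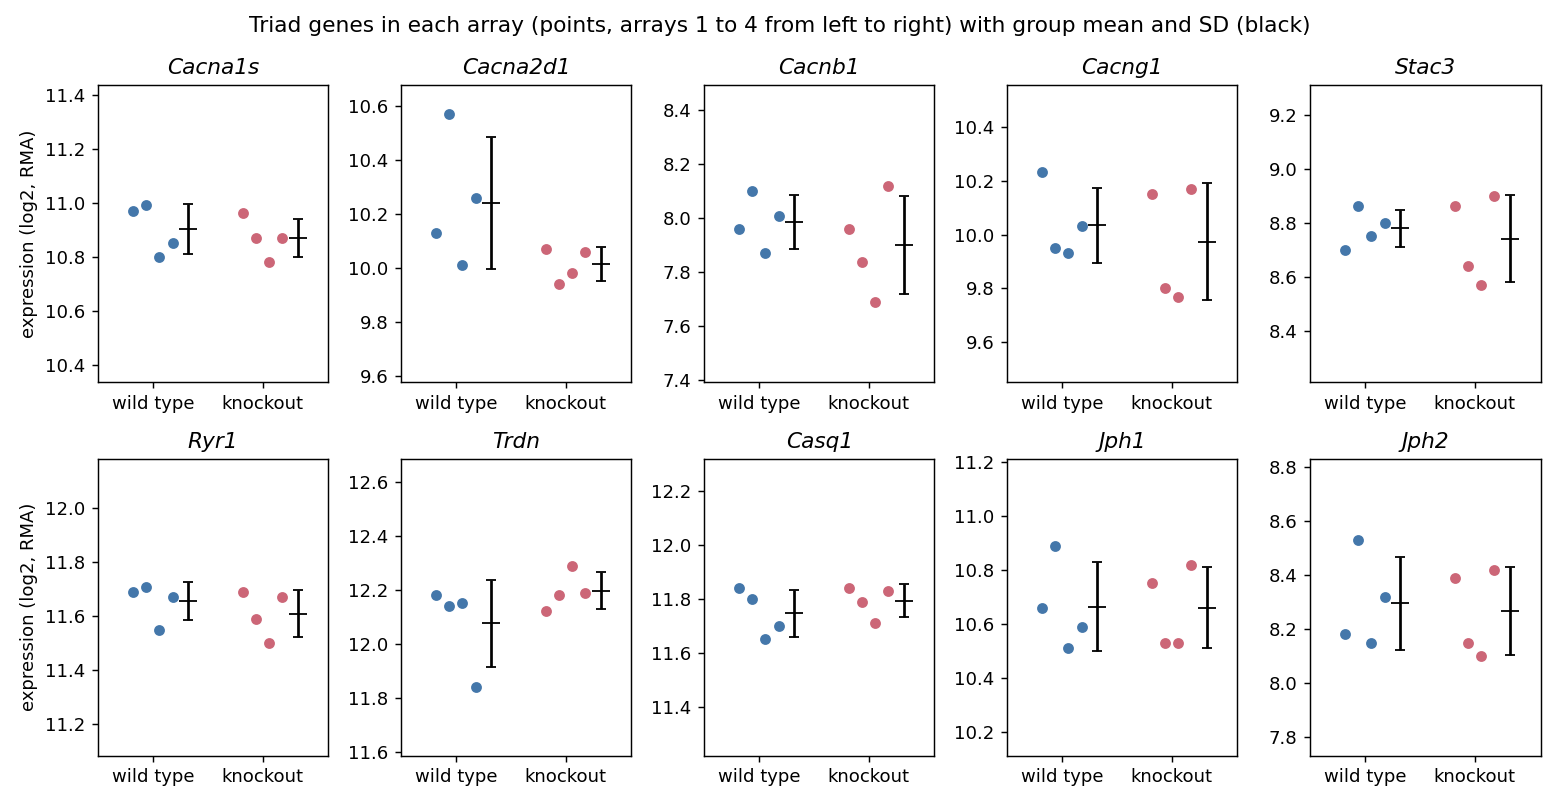
Expression of each triad gene (log2, y axis of equal span in each panel) on the 4 wild-type (blue) and 4 knockout (red) arrays, numbered 1 to 4 from left to right, with group mean and SD in black. The groups overlap in all 10 panels. Knockouts 1 and 4 sit above knockouts 2 and 3 for Cacna2d1, Cacnb1, Cacng1, Stac3, Ryr1, Casq1, Jph1 and Jph2. For Cacna1s knockouts 2 and 4 are level at 10.87. Wild type 4 stands below the other arrays for Trdn.

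Trdn encodes triadin, which anchors calsequestrin next to the release channel. Its brightest cluster measured 12.18, 12.14, 12.15 and 11.84 in wild types and 12.12, 12.18, 12.29 and 12.19 in knockouts. Wild type 4 lay below the other 7 arrays, which spanned 12.12 to 12.29. The difference was 0.12 (SE 0.097, 95% interval -0.089 to 0.33, limma adjusted p = 0.900), and it was 0.041 without wild type 4.

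The array measures Trdn with 19 clusters, more than any other gene here, and they did not all behave alike. Their means over 8 arrays ran from 5.84 to 12.14. Wild type 4 was the lowest array in 15 of the 19, and in 5 of them it lay more than 0.5 below the next lowest array. The widest such gap was in a cluster that measured 5.75 in wild type 4 and 6.99 to 7.33 on the other arrays. Other clusters showed no such drop, for example one at 11.31 in wild type 4 against 11.28 to 11.46 elsewhere. In another cluster wild types 2 and 4 were both low, at 7.44 and 7.06, against 8.06 to 8.77 on the other arrays.

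Knockout minus wild type over the 19 Trdn clusters ran from -0.17 to 0.58, with 14 higher and 5 lower and a median of 0.098. At an unadjusted p under 0.05 there were 2 clusters (5.85% of all 21789 clusters with 1 symbol), and 0 passed adjusted over all clusters or had groups without overlap (3.74% of all clusters). Without wild type 4, an alternative chosen after seeing these values, 7 were higher and 12 lower, the range was -0.29 to 0.36, the median was -0.014 and 0 had an unadjusted p under 0.05. Wild type 4 was the lowest array in 15 of the 19 clusters, so leaving it out lowers the difference in each of those. The clusters also measure the same 8 animals. In the 2 clusters with an unadjusted p under 0.05, the difference shrank from 0.58 to 0.36 and from 0.45 to 0.25 but stayed positive. The cluster at 0.58 is the one in which wild type 2 was low as well, at 7.44. Which exons each cluster covers is not given in the sources used here.

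**Figure D3:**
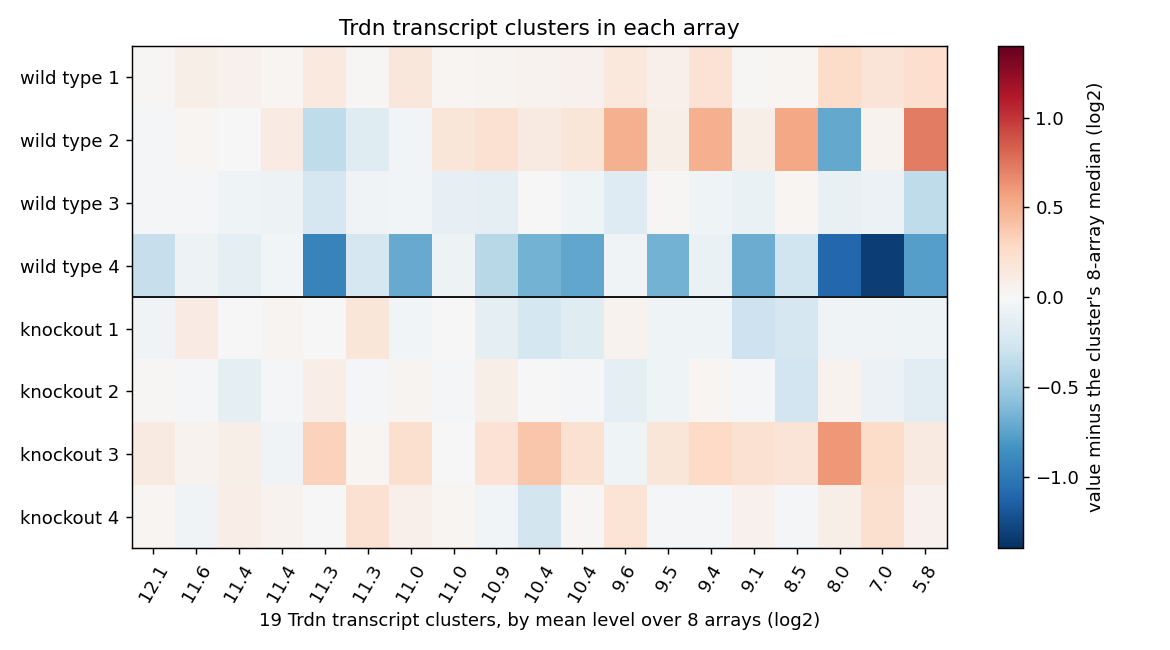
The 19 Trdn transcript clusters, ordered by mean level over 8 arrays (x axis, log2), in each array (y axis). Colour gives the value minus the cluster's 8-array median in log2 units. Wild type 4 is blue across most clusters and is the lowest array in 15 of 19, and knockout 3 is red in most of the same clusters.

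The triad genes ranged over a median of 0.405 log2 units across the 8 arrays, and most of them moved together from array to array. Measured as the deviation from each gene's mean over 8 arrays, their average was 0.034, 0.135, -0.085 and -0.014 in wild types 1 to 4 and 0.059, -0.087, -0.128 and 0.086 in knockouts 1 to 4. Wild type 2 had 9 of the 10 genes above their own mean, knockouts 1 and 4 had 8 each and wild type 1 had 7, whereas knockout 2 had 2 and wild type 3 and knockout 3 had 1 each. Knockout 3 was the lowest array for 6 genes and wild type 2 the highest for 5. Trdn went its own way, being highest in knockout 3.

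Part of this pattern was common to other transcripts of like brightness. Over the 1598 other genes whose means lay between 7.94 and 12.14, the range of the triad genes, the median deviation was 0.131 in wild type 2, against 0.135 for the triad genes. In knockout 3 it was -0.065 against -0.128, in knockout 2 -0.025 against -0.087 and in knockout 4 0.011 against 0.086. Less that median, the triad average was 0.054, 0.004, -0.023 and -0.048 in wild types 1 to 4 and 0.058, -0.062, -0.063 and 0.075 in knockouts 1 to 4. Wild type 2 was thus level with transcripts of its range. Wild type 1 and knockouts 1 and 4 lay above such transcripts, and wild types 3 and 4 and knockouts 2 and 3 below them, so animals of both genotypes were on either side. The place of wild type 4 rests partly on Trdn. Without that gene the triad average there was 0.018, against a median of 0.035 for the 1598 genes. The slow-fibre mean was 8.69 and 8.98 in knockouts 2 and 3 and 7.65 and 6.21 in knockouts 1 and 4. In the wild types it was 8.50 and 8.42 in wild types 2 and 4 and 6.97 and 7.25 in wild types 1 and 3. The fast-fibre mean stayed within 11.91 to 11.94 over the knockouts. Within that list Myh1 varied most, at 10.43, 11.44, 11.34 and 10.28 in knockouts 1 to 4. The part of fibre makeup or array brightness in the pattern was not tested.

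**Figure D4:**
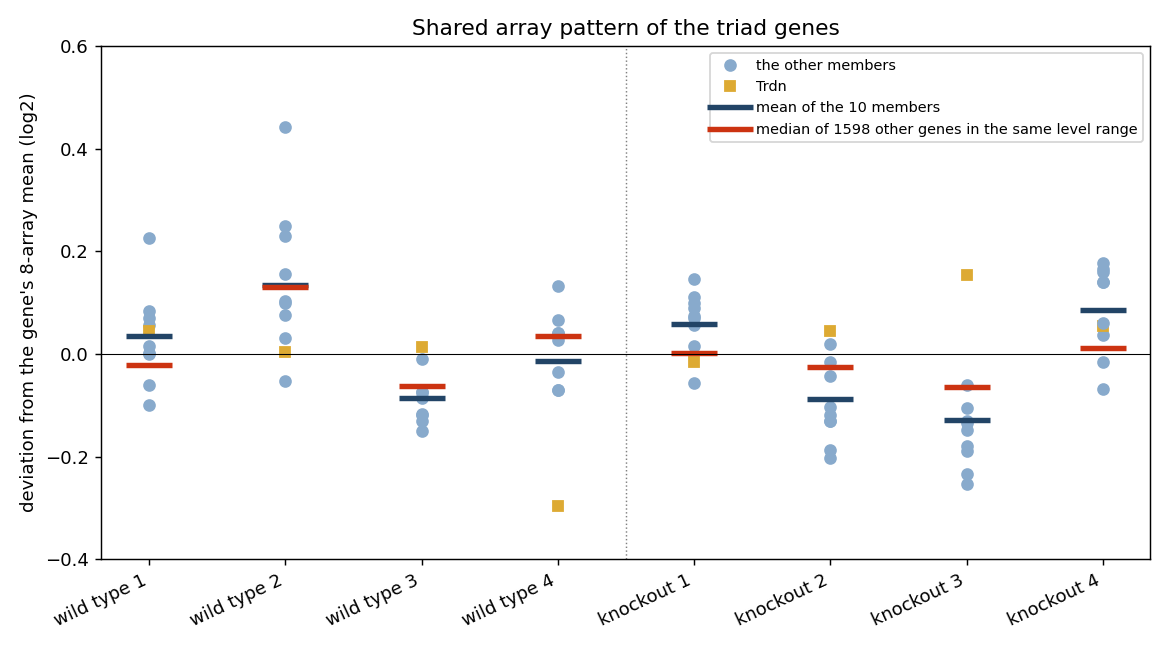
Deviation of each triad gene from its own mean over 8 arrays (log2, y axis) in each array (x axis), with the mean of the 10 genes (dark bars) and the median of 1598 other genes in the same range of level (red bars). In wild type 2 both bars stand near 0.13. In knockouts 2 and 3 the triad mean lies below the red bar and in knockouts 1 and 4 above it, and Trdn (yellow) departs from the rest in wild type 4 and knockout 3.

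Spread among animals was close to that of other transcripts of this range. The median residual SD of the 10 genes was 0.135, and that of the 1598 genes was 0.122, with a 10th percentile of 0.0665 and a 90th of 0.212. The 8-array range was narrowest for Casq1 (0.19), Cacna1s (0.21) and Ryr1 (0.22) and widest for Cacna2d1 (0.63) and Cacng1 (0.46).

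Among 9959 other genes above the median level, those whose standardized profile over the 8 arrays lay nearest to the mean profile of the 10 triad genes were Vezf1, Pds5b, Metap1, Vapa and Tmem87a, with root mean square differences of 0.119, 0.173, 0.186, 0.199 and 0.206 SD. Vezf1 measured 9.34, 9.42, 9.16 and 9.26 in wild types and 9.36, 9.19, 9.15 and 9.36 in knockouts, so it too was low in wild type 3 and knockouts 2 and 3. Nearest to Ryr1 were Sptb (0.158), Cldnd1 (0.175), Ampd1 (0.184), Ank1 (0.185) and Pole4 (0.199). Nearest to Cacna1s were Rxrb (0.184), Pde4b (0.215), Wfdc1 (0.239), Prkar2a (0.258) and Jak1 (0.279). For Casq1 they were Dus2 (0.274), Napb (0.279), Baz1b (0.286), Mylip (0.291) and Copb2 (0.298). These are the nearest of many profiles over 8 arrays and carry no test.

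The rest of the coupling pathway was described from lists of its parts, and 0 of the measured genes of any list passed adjusted over all genes. Paralogs of the triad genes, which serve heart, brain or other tissues, were measured in 21 of 23 cases, 12 higher and 9 lower, with a median difference of 0.011. Ryr2, the cardiac release channel, is given above, and Ryr3 lay between 4.22 and 4.95. Cacna1c, the pore of the cardiac channel, lay between 4.78 and 5.26, Cacna2d2 between 4.14 and 4.53 and Cacnb2 between 4.25 and 4.79. The brain junctophilins Jph3 and Jph4 lay between 4.62 and 5.29 and between 4.51 and 4.82, and Stac2 between 4.18 and 4.55. The groups overlapped for each of these paralogs. Casq2, the cardiac and slow-fibre calsequestrin, varied most, with 5.51, 6.65, 6.01 and 6.63 in wild types and 5.83, 6.55, 6.54 and 5.41 in knockouts. Its 4 highest arrays were the 4 with the highest slow-fibre mean, a list that holds Casq2 itself, and its difference was -0.12 (SE 0.28).

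Cacna2d4 had the smallest p among the paralogs. It measured 6.49, 6.39, 5.90 and 6.06 in wild types and 6.90, 6.46, 6.32 and 6.60 in knockouts, and the groups overlapped. The difference was 0.36 (SE 0.15, limma adjusted p = 0.861), opposite in sign to that of its relative Cacna2d1. The differences of Cacng7, Cacnb4 and Stac were -0.22, 0.18 and -0.16 (limma adjusted p from 0.869 to 0.889).

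Other triad proteins were measured in 20 of 23 cases, 9 higher and 11 lower, with a median of -0.038. Hrc, a histidine-rich calcium-binding protein of the reticulum lumen that binds triadin, measured 9.05, 9.01, 9.05 and 8.70 in wild types and 9.10, 9.14, 9.12 and 9.21 in knockouts. It was the 1 gene of this list whose groups did not overlap, 1 of 20 against 3.62% of all genes. Its difference was 0.19 (SE 0.097, limma adjusted p = 0.869), and 0.10 without wild type 4. Tmem38b, a potassium channel of the reticulum, differed by -0.28 (SE 0.13, limma adjusted p = 0.861), with wild type 2 at 8.70 and the other wild types at 8.06 to 8.15, and by -0.13 without wild type 2. Sypl2, the triad membrane protein mitsugumin-29, differed by -0.14, and Fkbp1a, which encodes the FKBP12 protein bound to the release channel, by -0.11.

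Calcium removal was measured through 12 of 14 genes, 3 higher and 9 lower (median -0.062). Slc8a1, a sodium-calcium exchanger of the surface membrane, had the smallest unadjusted p of all lists, 0.00804. It measured 5.26, 5.53, 5.36 and 5.17 in wild types and 5.14, 5.06, 4.87 and 4.97 in knockouts, without overlap (1 of 12 genes, against 3.62% of all genes). The difference was -0.32 (SE 0.10), and over all 19938 genes its limma adjusted p was 0.780. Slc8a3, another exchanger, differed by -0.091, Atp2b2, a plasma membrane pump, by -0.13 and Mrln, whose product myoregulin inhibits the reticulum pump, by -0.27 (SE 0.17).

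Membrane excitability genes, such as potassium channels and acetylcholine receptor chains, were measured in 12 of 16 cases, 4 higher and 8 lower (median -0.076). Kcnj11, a chain of the ATP-sensitive potassium channel, differed by -0.20, and the receptor chains Chrna1, Chrnd and Chrne by 0.16, 0.13 and -0.14. Targets of the released calcium were measured in 14 of 14 cases, 5 higher and 9 lower (median -0.042). Camk2b, a calmodulin-dependent kinase, measured 9.31, 9.45, 9.42 and 9.36 in wild types and 9.24, 9.30, 9.19 and 9.12 in knockouts, without overlap (1 of 14 genes, against 3.62% of all genes), and differed by -0.17 (SE 0.082, limma adjusted p = 0.861). Mylk2, the skeletal myosin light chain kinase, differed by -0.26 (limma adjusted p = 0.861), with knockouts 2 and 3 low at 10.47 and 10.45. Tpm2, a tropomyosin, differed by -0.40 (SE 0.25), with knockout 4 at 10.16 and the other knockouts at 11.16 to 11.62, and by -0.076 without knockout 4. Tnnc2, the fast troponin C that binds the released calcium, differed by 0.11.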

How the data were processed

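Gastrocnemius RNA of 8 mice was profiled with 1 array per animal. Per the labels' protocols, 100 ng of total RNA was amplified and 5500 ng of cDNA labelled. The authors deposited log2 values. The submitters' processing notes name RMA and Affymetrix Expression Console, while version, settings and genome build are not given in the sources used here. RMA compresses differences of dim transcripts. Of 35556 transcript clusters, 21789 had 1 gene symbol in the array annotation (1621 had several and 12146 were unnamed), which gave 19938 genes, each by its brightest cluster, with no filter.

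Groups came from the titles. Knockout and wild type were compared over all 19938 genes with the R (4.3.3) package limma (3.58.1; lmFit, eBayes) and Benjamini-Hochberg adjustment at 0.05 (6 residual and 6.26 prior degrees of freedom). The steps were tested on simulated data. The number of arrays limits the precision. The genes, lists and alternatives were chosen with earlier results of these data known. The 10 triad genes were named in full, up to 4 genes per list by smallest p, and the closest paralogs. Alternatives were renormalization, filters on dim genes, cluster means, another variance prior, array weights, a replicate block, leaving out arrays, all clusters and a threshold of 0.1. The titles' replicate numbers did not pair animals by the check used. Python 3.11.15 with matplotlib 3.10.9 drew the figures.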

Additional observations from a re-analysis of the deposited data

Results flagged for a closer look

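In 4 of 80 groups of 4 arrays (40 named genes, 2 genotypes), 1 array lay farther from the others than Dixon's 95% limit of 0.829 for the gap over the range, and chance alone gives about 1 in 20. For Trdn, wild type 4 measured 11.84 and the other wild types 12.14 to 12.18. For Hrc, whose product binds triadin, wild type 4 measured 8.70 and the others 9.01 to 9.05. For Tmem38b, wild type 2 measured 8.70 and the others 8.06 to 8.15. For Chrnd, knockout 4 measured 4.72 and the other knockouts 4.88 to 4.90.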

How the results depend on the processing

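No triad gene passed an adjusted p of 0.05 in any of 19 alternatives (190 values, smallest limma adjusted p 0.608), and 0 of 10 passed at a threshold of 0.1. Ryr1, Cacna1s, Cacna2d1, Cacnb1, Trdn and Casq1 kept their sign in all 19, and the other 4 did not. Jph2 was 0.015 after quantile normalization, 0.001 after cyclic loess and 0.032 with array weights, and Jph1 was 0.014 after cyclic loess, 0.035 as the mean over clusters, 0.027 with array weights and 0.019 without wild type 2 and knockout 4 together. Leaving out 1 array gave -0.058 to 0.073 for Jph1, -0.080 to 0.050 for Jph2, -0.125 to 0.007 for Cacng1 and -0.090 to 0.020 for Stac3. One triad gene, Cacna2d1, had an unadjusted p under 0.05 after quantile normalization (0.0456), cyclic loess (0.0499) or with an intensity trend and robust prior (0.0420). In these settings, in that order, 6.31%, 6.57% and 5.83% of all genes were at that level. Its limma adjusted p was 0.768, 0.757 and 0.848. Leaving out 1 array gave 0 to 1 triad genes at that level (Cacna2d1 without wild type 3, limma adjusted p = 0.608, where 7.51% of all genes were at that level) and 0 to 1 without overlap. These were Cacna2d1 without wild type 3 and Trdn without knockout 1, where the groups of 7.71% and 5.93% of all genes did not overlap. The causes were not tested. The 20 other named genes kept their sign and missed the threshold in all 376 alternative values (smallest limma adjusted p 0.574), but leaving out 1 array moved the differences of 14 of them by over 1.5 times.

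Over all genes, 1 was higher and 2 lower. The higher count became 3 without the dimmest 50%, 3 with an intensity trend and 3 at a threshold of 0.1, and 0 with all clusters. The lower count became 1 after quantile normalization or cyclic loess, 10 without the dimmest 25% or 50%, 14 with an intensity trend, 13 at 0.1, and 0 with all clusters or without wild type 2 and knockout 4. Leaving out 1 array gave 0 to 2 higher and 0 to 3 lower. With the replicate block both counts were 0, and no triad gene passed. Deviations of same-numbered arrays correlated at 0.094, 0.065, 0.222 and -0.103 over genes, and 2 of 4 wild types correlated best with their own number, so the numbers were not taken to pair animals. Kat2a passed in 10 of 19 alternatives (limma adjusted p from 0.00916 to 0.137, difference from -0.68 to -0.64).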
